A study of Homo sapiens with 29 samples.

Results

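Muscle wasting runs through a small set of genes, and 7 of them were followed here in human myoblasts: the ubiquitin ligases FBXO32 (atrogin-1), TRIM63 (MuRF1) and FBXO40, the forkhead factors FOXO1, FOXO3 and FOXO4, and the Krüppel-like factor KLF15. They were chosen by name, and their probes were named through RefSeq accessions. The 7 genes, of 18432 named genes with a tested probe, had 10 probes of 38839 tested and 58201 on the array. The cells were LHCN-M2, a human myoblast line from 1 selected clone, immortalized with telomerase and CDK4, so every group shares that background. They received 20 nM nontargeting siRNA (siControl) or 20 nM siRNA against the zinc finger factor ZNF148 (siZNF148). In growth media, cells were subconfluent at 24 h and confluent at 48 and 96 h, and other cells were taken after 48 or 96 h in differentiation media. Each of the 10 groups had 3 arrays, labelled as biological replicates, except siControl at 96 h in growth media with 2. Hours in differentiation media count from the change of media that followed transfection, so equal hours in the 2 media may not be equal times since transfection. All arrays at 24 h shared a slide and a scan of their own. A difference in level between 24 h and later therefore cannot be told apart from slide and scan, and none was tested.

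Ubiquitin ligases mark proteins for the proteasome. FBXO32 is the substrate-binding subunit of an SCF ligase, TRIM63 is a RING ligase of the sarcomere, and both are known for their induction when muscle is denervated, starved or exposed to glucocorticoids. FOXO factors are held in the cytoplasm when insulin and IGF signaling through AKT phosphorylates them, and in the nucleus they drive the ligase genes together with autophagy genes. KLF15 is a glucocorticoid target in muscle that acts on the same genes. Their mRNA levels, which are what was measured, say nothing of where the FOXO proteins are.

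ZNF148 itself was lower in siZNF148 cells in all 5 comparisons, by 2.88 to 6.68-fold and without overlap between the arrays of the 2 groups (limma, Benjamini-Hochberg adjusted p from 7.76e-13 to 4.46e-08). Of 6 myoblast markers, MYOD1, DES, CDH15, MYF5 and NCAM1 were well above background on all 29 arrays and PAX7 on 20. Of 4 adipocyte markers, PLIN1 and LEP were above it on 0, FABP4 on 1 and ADIPOQ on 4. The mean of 7 myotube markers, on the log2 scale, was 3.87 to 4.26 at 24 h. From 48 h on it was 15.8 to 16.5 with siZNF148 and, with siControl, 7.41 to 11.7, apart from 13.9 to 14.1 at 96 h in differentiation media and 14.5 on replicate 1 at 48 h in growth media, which stood apart from 7.41 and 7.44 in the other two. A list of 4 cardiac genes moved too, from array means of 6.13 to 8.85 with siControl to 10.1 to 11.3 with siZNF148 from 48 h on. The mean of 5 fibroblast markers was 10.1 to 11.2 with siControl and 8.92 to 10.2 with siZNF148 over the same times. That of 6 myoblast markers was 11.7 to 13.1 and 13.6 to 13.9, but these genes did not move together. At 48 h in growth media NCAM1 had group means of 10.15 with siControl and 14.48 with siZNF148, and MYOD1, DES and CDH15 were higher too. PAX7 was at 4.85 in both groups, and MYF5 was lower with siZNF148, at 12.655 against 11.025. MYF5 was also lower at 96 h in growth and 48 h in differentiation media, but not at 96 h in differentiation media (10.48 against 10.60). Over all 29 arrays the means of 3 endothelial, 2 leukocyte and 4 adipocyte markers lay at 4.86 to 6.52, 4.05 to 5.97 and 2.13 to 3.25. The part of these shifts in the results below was not tested, and in bulk RNA fewer cells of a type and less RNA per cell cannot be told apart. On each array 41.6% to 56.5% of the probes stood well above background. With 2 or 3 arrays a group, precision is limited by their number.

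The 250 bases before the start of TRIM63, FOXO4 and FOXO1 are shown because these 3 genes had unlike patterns after the knockdown: a very large rise, a rise of the factor that moved most like TRIM63, and a rise in growth media only. Sequences are from RefSeq (GRCh38.p14), 5′ to 3′ on the strand of the gene: TRIM63 on the minus strand at chr1:26067631-26067880, FOXO4 on the plus strand at chrX:71095601-71095850, and FOXO1 on the minus strand at chr13:40666642-40666891. Capitals mark matches, on either strand, to the forkhead motifs TGTTTAC and TGTTTAT, the E-box CANNTG bound by myogenic factors, the TATA motif TATAAA, the glucocorticoid receptor core AGAACA, the GC box GGGCGG and CCCTCCC, a C-rich motif of the kind that ZNF148 is known to bind.
TRIM63: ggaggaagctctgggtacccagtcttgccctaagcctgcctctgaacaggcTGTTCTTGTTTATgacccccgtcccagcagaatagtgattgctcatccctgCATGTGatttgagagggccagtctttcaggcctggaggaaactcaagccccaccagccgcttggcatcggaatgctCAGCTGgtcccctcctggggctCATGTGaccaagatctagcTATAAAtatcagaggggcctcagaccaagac
FOXO4: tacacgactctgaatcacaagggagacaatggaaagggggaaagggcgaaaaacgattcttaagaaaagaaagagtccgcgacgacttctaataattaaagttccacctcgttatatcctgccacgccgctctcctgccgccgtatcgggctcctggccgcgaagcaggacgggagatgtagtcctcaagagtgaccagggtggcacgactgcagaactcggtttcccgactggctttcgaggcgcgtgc
FOXO1: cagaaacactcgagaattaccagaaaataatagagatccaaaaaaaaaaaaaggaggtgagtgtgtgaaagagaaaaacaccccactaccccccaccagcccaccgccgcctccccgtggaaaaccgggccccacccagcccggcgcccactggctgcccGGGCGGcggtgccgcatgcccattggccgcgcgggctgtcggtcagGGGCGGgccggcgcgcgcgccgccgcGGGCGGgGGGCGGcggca

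In the TRIM63 window, the forkhead motif TGTTTAT begins 193 bases before the start, next to AGAACA on the opposite strand, and 3 E-boxes and TATAAA, which begins 31 bases before the start, follow. The FOXO1 window holds 4 copies of GGGCGG and a GC content of 67.2%. None of these letters are in the FOXO4 window, which says nothing of any factor there. Of 35114 promoters of the same length, 3.77% hold TGTTTAT, 2.98% TGTTTAC, 12.4% AGAACA, 10.7% TATAAA, 61.8% CANNTG, 42.6% GGGCGG and 24.7% CCCTCCC. Windows are described for 6 of the 7 genes, and none for FBXO32. The 4 FOXO3 windows held 9 copies of GGGCGG and 6 of CCCTCCC in all, and the FBXO40 window held TATAAA and an E-box. Window 2 of FOXO3 also held the forkhead motif TGTTTAT, on the opposite strand and beginning 234 bases before the start. The KLF15 window held 6 copies of GGGCGG and 1 E-box. These matches are descriptions of letters and not of binding.

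**Figure D1:**
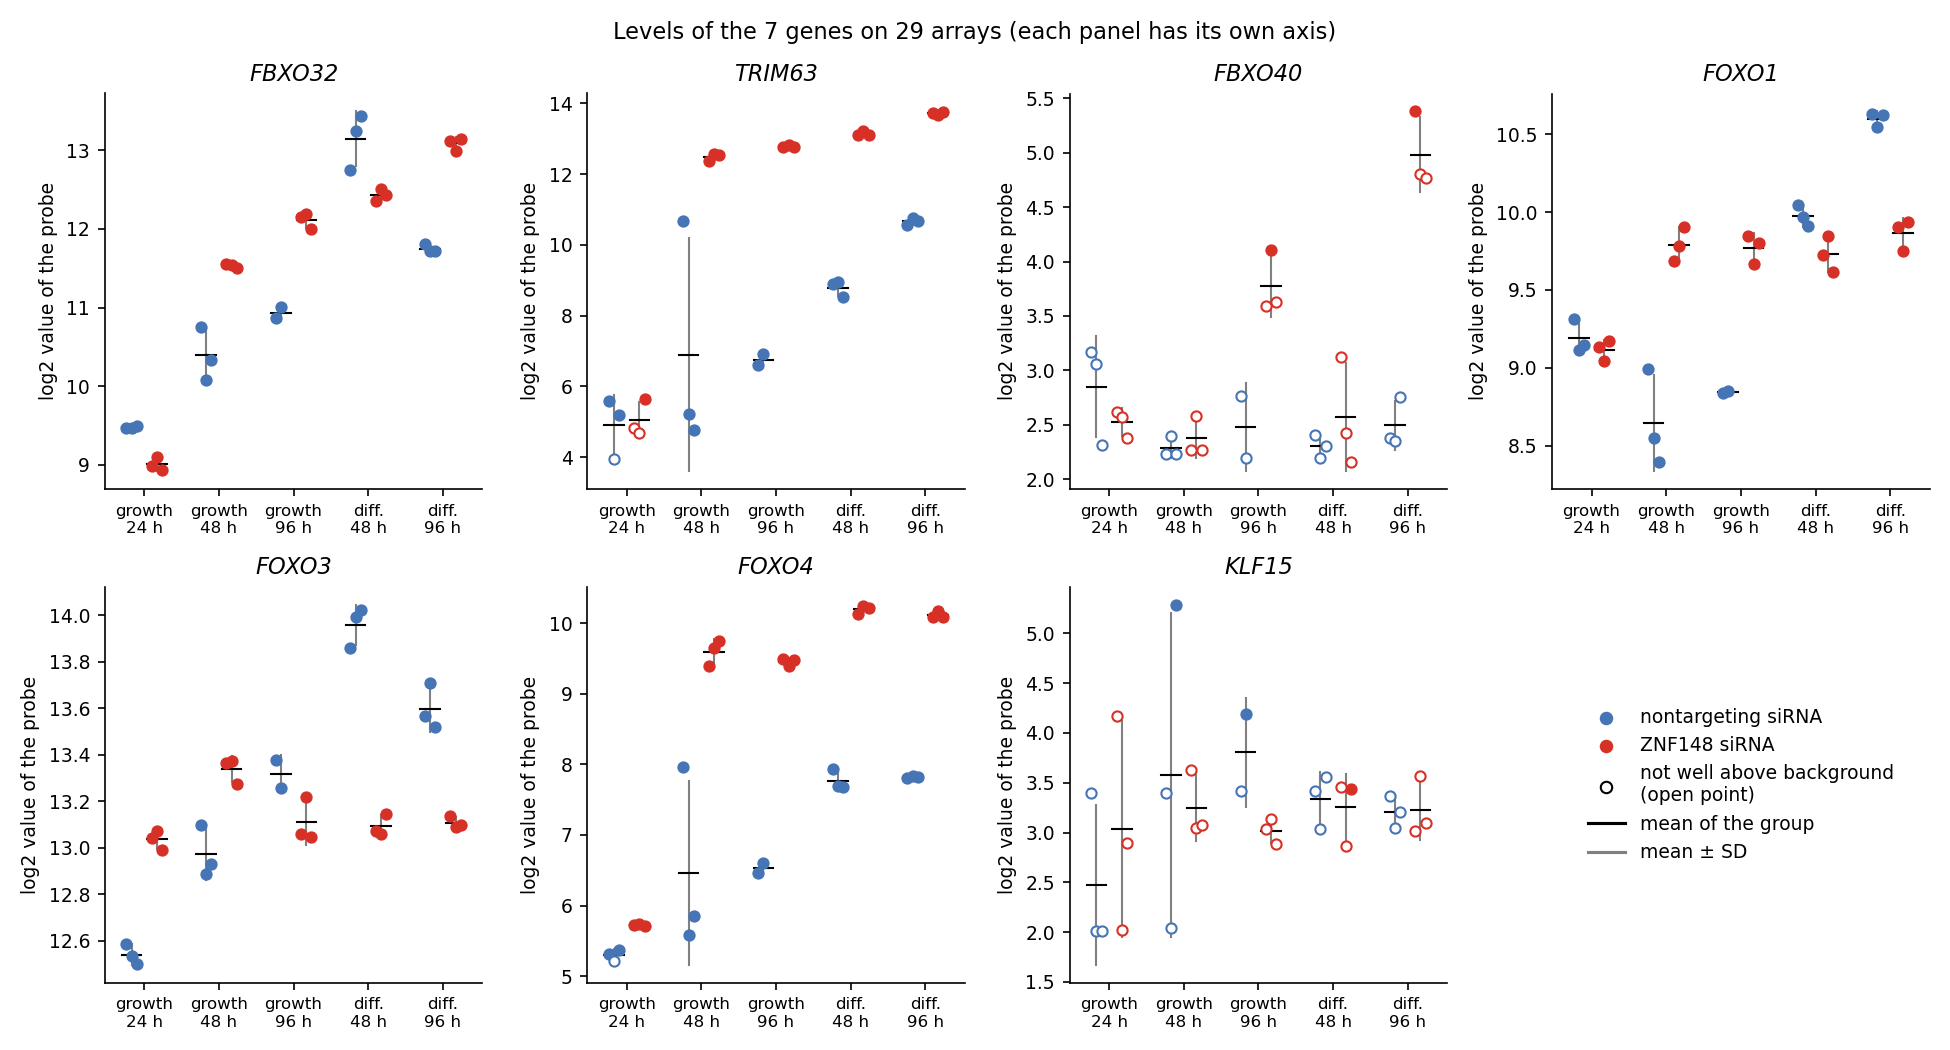
Log2 value of the probe of each gene (y axis, a scale of its own in each panel) on all 29 arrays by media and hours (x axis), with nontargeting siRNA in blue and ZNF148 siRNA in red, open points for arrays on which the probe was not well above background, black lines for group means and grey lines for mean ± SD. TRIM63 and FOXO4 sit far higher with ZNF148 siRNA from 48 h on, FBXO32 crosses over at 48 h in differentiation media, and FOXO1 and FOXO3 are highest with nontargeting siRNA in differentiation media.

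TRIM63 rose most of the 7 genes after ZNF148 knockdown, in every comparison from 48 h on. A gene is said to have risen or fallen at a Benjamini-Hochberg adjusted p under 0.05 in limma, with p-values adjusted over all 38839 probes, and to be called where the change was also more than 2-fold. The log2 values at 24 h were 5.59, 3.95 and 5.20 on the siControl arrays and 4.82, 4.70 and 5.64 on the siZNF148 arrays. These overlapped, were near background, and differed by 0.14 ± 0.89 (SE, n = 3 and 3, adjusted p = 0.975 in limma). In growth media for 48 h, siControl arrays gave 10.69, 5.22 and 4.78 and siZNF148 arrays 12.37, 12.56 and 12.55, a rise of 5.60 ± 0.89 (48.4-fold, adjusted p = 1.68e-05 in limma). Replicate 1 of siControl was the array on which myotube markers were high, and without it the rise was 7.49 (limma adjusted p = 5.08e-14). Within the 3 slides the rise was 7.33, 7.59 and, on the slide that held replicate 1, 1.87. With slide as a fixed block the adjusted p was 0.0754, and TRIM63 was then not called at 48 h.

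By 96 h in growth media TRIM63 read 6.60 and 6.90 with siControl and 12.78, 12.83 and 12.77 with siZNF148, so that the rise was 6.04 ± 0.99 (65.8-fold, n = 3 and 2, limma adjusted p = 2.89e-05). The siControl cells reached higher levels in differentiation media, with 8.89, 8.95 and 8.53 at 48 h against 13.11, 13.21 and 13.11 after knockdown. That rise was 4.35 ± 0.89 (20.4-fold, limma adjusted p = 0.00023) and lay between 4.16 and 4.58 within slides. At the later time they read 10.56, 10.76 and 10.69 against 13.74, 13.67 and 13.76, a rise of 3.05 ± 0.89 (8.3-fold, limma adjusted p = 0.00665). The arrays of the 2 groups did not overlap in any of the comparisons from 48 h on. In the order of group means, the 4 siZNF148 groups from 48 h on stood above all siControl groups, and no neighbours from siControl at 48 h in differentiation media upward overlapped. Below that, the 3 siControl groups in growth media and siZNF148 at 24 h overlapped along the order, except that siZNF148 at 24 h and siControl at 96 h did not.

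FBXO32 changed in both directions: it fell at 24 h in growth media and at 48 h in differentiation media, and rose in the other comparisons. The siControl arrays at 24 h read 9.46, 9.47 and 9.50 and the siZNF148 arrays 8.99, 9.10 and 8.93, a change of -0.47 ± 0.14 (1.38-fold lower, n = 3 and 3, limma adjusted p = 0.017). Under other processing settings it ran from -0.52 to -0.35, and not all kept the adjusted p under 0.05. After 48 h in growth media the values were 10.76, 10.09 and 10.33 against 11.55, 11.54 and 11.50, a rise of 1.14 ± 0.14 (2.2-fold, limma adjusted p = 6.35e-07). The difference was 1.41, 0.78 and 1.22 within the 3 slides, and without siControl replicate 2 it was 0.98, just under the 2-fold line. After 96 h they were 10.86 and 11.00 against 12.15, 12.20 and 12.00, a rise of 1.18 ± 0.16 (2.27-fold, limma adjusted p = 1.96e-06). The groups were apart at each of these times.

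In differentiation media, FBXO32 was higher in siControl than in siZNF148 cells at 48 h and lower at 96 h. The values at 48 h were 12.76, 13.24 and 13.43 with siControl and 12.36, 12.51 and 12.43 with siZNF148, a change of -0.71 ± 0.14 (1.64-fold lower, limma adjusted p = 0.000154). It was lower on each of the 3 slides, by -0.25, -1.08 and -0.81. Under other processing settings the change ran from -0.91 to -0.45, and again not all kept the adjusted p under 0.05. At 96 h the siControl arrays were down to 11.81, 11.72 and 11.71 while the siZNF148 arrays read 13.12, 12.99 and 13.14, a rise of 1.34 ± 0.14 (2.53-fold, limma adjusted p = 5.75e-08). The change of effect from 48 to 96 h in differentiation media was 2.05 ± 0.20 (95% interval 1.64 to 2.46, limma adjusted p = 5.97e-08). Of all neighbours in the order of the 10 group means, siZNF148 at 96 h and siControl at 48 h in differentiation media, the 2 highest, alone overlapped.

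FBXO40, a muscle F-box protein known to target IRS1, was near the floor of the array. It was well above background on 2 of 29 arrays, both of siZNF148 cells at 96 h, 1 in each of the media. FBXO40 therefore passed the filter of 2 arrays only through the groups in which it was high, so its calls are descriptions. It is left out of the counts below unless it is named as included. Its log2 values ran from 2.16 to 3.17 in the groups other than those of siZNF148 at 96 h. In growth media those were 3.60, 4.10 and 3.63 against 2.77 and 2.19 with siControl, a measured difference of 1.30 ± 0.27. In differentiation media they were 5.38, 4.80 and 4.77 against 2.38, 2.35 and 2.75, a measured difference of 2.49 ± 0.24. No fold is given for either, since 1 of 3 siZNF148 arrays and 0 of the siControl arrays were above background. With another background correction (normexp) both differences were under 2-fold, at 0.39 and 0.54.

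Among FOXO1, FOXO3 and FOXO4, FOXO4 had the largest changes after the knockdown from 48 h on, and it rose in all 4 of those comparisons. Its probe read 5.31, 5.22 and 5.38 with siControl and 5.72, 5.73 and 5.71 with siZNF148 at 24 h, a difference of 0.42 ± 0.34 (n = 3 and 3, limma adjusted p = 0.462). In growth media at 48 h the readings were 7.96, 5.58 and 5.85 against 9.40, 9.64 and 9.75, a rise of 3.13 ± 0.34 (8.77-fold, limma adjusted p = 1.31e-07). Replicate 1 of siControl was again the high array, and without it the rise was 3.88. Within slides it was 4.17 and 3.55 and, with replicate 1, 1.68. At 96 h in growth media values of 6.46 and 6.60 stood against 9.50, 9.40 and 9.47, a rise of 2.93 ± 0.38 (7.6-fold, limma adjusted p = 1.7e-06). Differentiation media gave 7.94, 7.69 and 7.68 against 10.13, 10.25 and 10.21 at 48 h, a rise of 2.43 ± 0.34 (5.38-fold, limma adjusted p = 2.73e-06). At 96 h in the same media it gave 7.81, 7.84 and 7.82 against 10.09, 10.17 and 10.08, a rise of 2.29 ± 0.34 (4.9-fold, limma adjusted p = 8.46e-06). From 48 h on, all siZNF148 arrays were above all siControl arrays. Those at 24 h were apart too. The fit shares its spread among groups, and the SD was 1.30 for siControl at 48 h in growth media. At 24 h it was 0.08 for siControl and 0.01 for siZNF148. A second FOXO4 probe, above background on 16 of 29 arrays, was called in the same 4 comparisons, with measured differences of 1.95 to 2.83. Its siControl arrays above background were 1 of 3 at 48 h and 0 of 2 at 96 h in growth media. In differentiation media they were 2 of 3 and 1 of 3, so these differences are partly against the floor.

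FOXO1 rose after knockdown in growth media and fell after it at 96 h in differentiation media. At 24 h its values overlapped, with 9.31, 9.11 and 9.15 for siControl and 9.13, 9.04 and 9.17 for siZNF148 (difference -0.08 ± 0.11, n = 3 and 3, limma adjusted p = 0.728). At 48 h in growth media they did not, with 8.99, 8.55 and 8.39 against 9.69, 9.78 and 9.91, a rise of 1.15 ± 0.11 (2.21-fold, limma adjusted p = 2.07e-08). With normexp correction this rise was 0.99, just under 2-fold. At 96 h it read 8.84 and 8.85 against 9.84, 9.67 and 9.81, a rise of 0.93 ± 0.12 (1.9-fold, limma adjusted p = 1.89e-06) that was under the 2-fold line. The 48 h arrays in differentiation media read 10.05, 9.97 and 9.91 with siControl and 9.73, 9.85 and 9.62 with siZNF148 (difference -0.25 ± 0.11, limma adjusted p = 0.0687). At 96 h FOXO1 was at 10.63, 10.55 and 10.63 against 9.91, 9.75 and 9.94, a change of -0.74 ± 0.11 (1.67-fold, limma adjusted p = 8.09e-06). The 4 siZNF148 groups from 48 h on lay between 9.62 and 9.94, and neighbours among them overlapped. By contrast, the siControl groups ran from 8.65 in growth media at 48 h to 10.60 in differentiation media at 96 h in their means.

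FOXO3 was measured by 3 probes, and the brightest of them changed by less than 2-fold in every knockdown comparison. With siControl it read 12.59, 12.53 and 12.50 at 24 h, and with siZNF148 13.04, 13.07 and 12.99, a rise of 0.50 ± 0.07 (1.41-fold, n = 3 and 3, limma adjusted p = 1.29e-05). At 48 h in growth media it read 13.10, 12.89 and 12.93 against 13.37, 13.37 and 13.27, a rise of 0.36 (1.29-fold, limma adjusted p = 0.000129). After 96 h, 13.38 and 13.26 stood against 13.06, 13.22 and 13.05, a change of -0.21 (1.16-fold, limma adjusted p = 0.0315). On the 1 slide that held both groups, with 1 siZNF148 and 2 siControl arrays, it was -0.10. Under other processing settings it ran from -0.27 to -0.10, and not all kept the adjusted p under 0.05. The fall was larger in differentiation media, where 13.86, 13.99 and 14.02 stood against 13.07, 13.06 and 13.15 at 48 h (-0.86, 1.82-fold, limma adjusted p = 4.8e-10). At 96 h there, 13.57, 13.71 and 13.52 stood against 13.14, 13.09 and 13.10 (-0.49, 1.4-fold, limma adjusted p = 3.61e-06). The arrays of the 2 groups did not overlap in any of the 5 comparisons. The other 2 probes had the same sign in all 5, and of them one, at 96 h in growth media, missed the threshold with -0.03 (limma adjusted p = 0.899). FOXO3 was highest in siControl cells at 48 h in differentiation media, above the next group without overlap.

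KLF15 was well above background on 3 of 29 arrays, with values from 2.01 to 5.29 over all of them. These 3 were siControl replicate 3 at 48 h and replicate 2 at 96 h in growth media and siZNF148 replicate 3 at 48 h in differentiation media. The differences after knockdown were between -0.78 and 0.56, with adjusted p from 0.377 to 0.987 in limma. A change of KLF15 was not detectable at this signal.

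**Figure D2:**
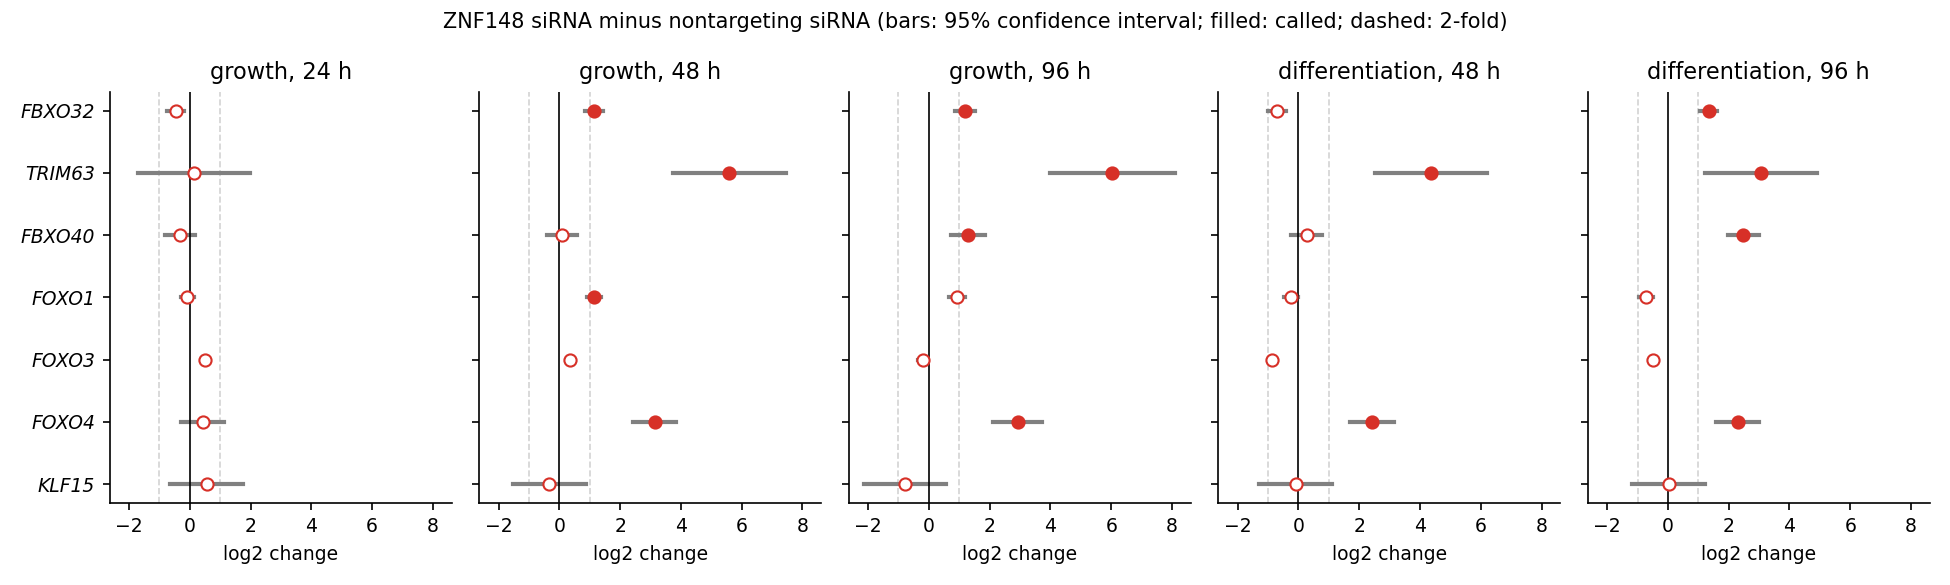
Log2 change after ZNF148 knockdown (x axis, ZNF148 siRNA minus nontargeting siRNA) of the 7 genes (y axis) in the 5 comparisons, with 95% confidence intervals as bars, filled points where the change was called and dashed lines at 2-fold. The points of TRIM63 and FOXO4 lie to the right of the 2-fold line in the last 4 panels, FBXO32 lies left of 0 at 24 h in growth and 48 h in differentiation media, and FOXO3 moves from right of 0 at 24 and 48 h in growth media to left of it in the others.

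Counted over the 6 genes other than FBXO40, 0 were called in either direction at 24 h, where 2.44% of all genes were called higher and 3.03% lower. In growth media 4 were called higher at 48 h (FBXO32, TRIM63, FOXO1 and FOXO4), against 11.7% of all genes, and 3 at 96 h (FBXO32, TRIM63 and FOXO4), against 12.3%. In differentiation media 2 were called higher at 48 h (TRIM63 and FOXO4), against 15% of all genes, and 3 at 96 h (FBXO32, TRIM63 and FOXO4), against 10.4%. None was called lower in those 4 comparisons, where 12.2%, 12.4%, 17.2% and 12.8% of genes were. On the adjusted p alone, 2 of 6 passed at 24 h, 5 at 48 h and 5 at 96 h in growth media, and 4 and 5 in differentiation media. The shares of all probes were 23.6%, 45.2%, 44%, 52.5% and 48.1% in that order. Groups without overlap were also common, with 3, 5, 6, 5 and 5 of the 6 genes against 43.7%, 51.3%, 65.5%, 59.4% and 55% of probes, so a lack of overlap sets few of these genes apart.

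The effect of the knockdown differed between times or media for FBXO32, TRIM63, FOXO1, FOXO3 and FOXO4, as tested by differences of effects in the same limma fit. Between 24 and 48 h in growth media 4 of the 6 genes other than FBXO40 were called different, where 20.5% of all genes were, and between 24 and 96 h 4 again, where 22.7% were. These were FBXO32, TRIM63, FOXO1 and FOXO4 at both times. Between 48 and 96 h 0 of the 6 were called in growth media (5% of genes) and FBXO32 alone in differentiation media (16.7%). Between the media, FBXO32, FOXO1 and FOXO3 differed at 48 h (17.1% of genes) and FOXO1 at 96 h (12.4%). With scaling to the 75th percentile the difference for FOXO3 was -0.99, and that for FOXO1 between 24 and 96 h was 0.95 and with normexp correction 0.98, all just under 2-fold. After knockdown FBXO32 and FOXO3 at 48 h, and FOXO1 at 96 h, rose in growth media and fell in differentiation media. The difference of effects was -1.85 ± 0.20 for FBXO32 (limma adjusted p = 1.95e-07) and -1.23 ± 0.10 for FOXO3 (limma adjusted p = 2.6e-09). For FOXO1 it was -1.67 ± 0.17 (limma adjusted p = 2.2e-07). For TRIM63 the effect in differentiation minus growth media was -1.24 (95% interval -3.86 to 1.37) at 48 h and -2.99 (-5.76 to -0.22) at 96 h, with adjusted p of 0.532 and 0.116 in limma. Without siControl replicate 1 at 48 h in growth media these were -3.14 and -2.99, and both were called (limma adjusted p = 6.02e-06 and 1.78e-05), as was the difference for FOXO4 at 48 h, -1.46 (limma adjusted p = 2e-08).

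In siControl cells several of the genes were higher in differentiation than in growth media. At 48 h FBXO32 was 2.75 ± 0.14 higher on the log2 scale (6.74-fold, limma adjusted p = 1e-12), FOXO1 1.33 (2.51-fold, adjusted p = 2.15e-09) and FOXO4 1.30 (2.47-fold, adjusted p = 0.00393). Of the 6 genes other than FBXO40, these 3 were called, against 7.7% of all genes called higher and 8.17% lower. FOXO3 rose by 0.98 (1.98-fold, limma adjusted p = 1.57e-10), just under the line, while TRIM63, at 1.90, had an adjusted p of 0.104. Without siControl replicate 1 in growth media, 5 were called, with TRIM63 at 3.79 (limma adjusted p = 4.67e-09) and FOXO3 at 1.05. FOXO4 was not called without replicate 2 (0.86) or replicate 3 (1.00, just under 2-fold) of the same group, nor with normexp correction (0.73).

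At 96 h the 3 called were TRIM63, 3.92 higher (15.1-fold, limma adjusted p = 0.00349), FOXO1, 1.76 higher (3.38-fold, adjusted p = 3.62e-10), and FOXO4, 1.29 higher (2.45-fold, adjusted p = 0.0114), against 6.79% of genes called higher and 8.27% lower. Without siControl replicate 1 at 96 h in growth media FOXO4 was at 1.22 with an adjusted p of 0.0806, and with normexp correction it was at 0.86, under 2-fold. FBXO32 rose by 0.82 (1.76-fold, limma adjusted p = 0.000276). In siZNF148 cells 0 of the 6 genes other than FBXO40 were called between media at 48 h, against 1.12% of genes higher and 2.84% lower, and 0 at 96 h, against 1.44% and 4.96%. FBXO32 rose in these cells by 0.90 at 48 h and 0.97 at 96 h (limma adjusted p = 0.000101 and 2.28e-05), both under 2-fold. FOXO1 differed by -0.06 and 0.09 (limma adjusted p = 0.842 and 0.637). FBXO40 had a measured difference of 1.21 at 96 h, with 1 of 3 arrays above background in each group, and one of 0.21 with normexp correction. The differences of the media effect between the siRNAs are the differences of the knockdown effect between media given above.

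**Figure D3:**
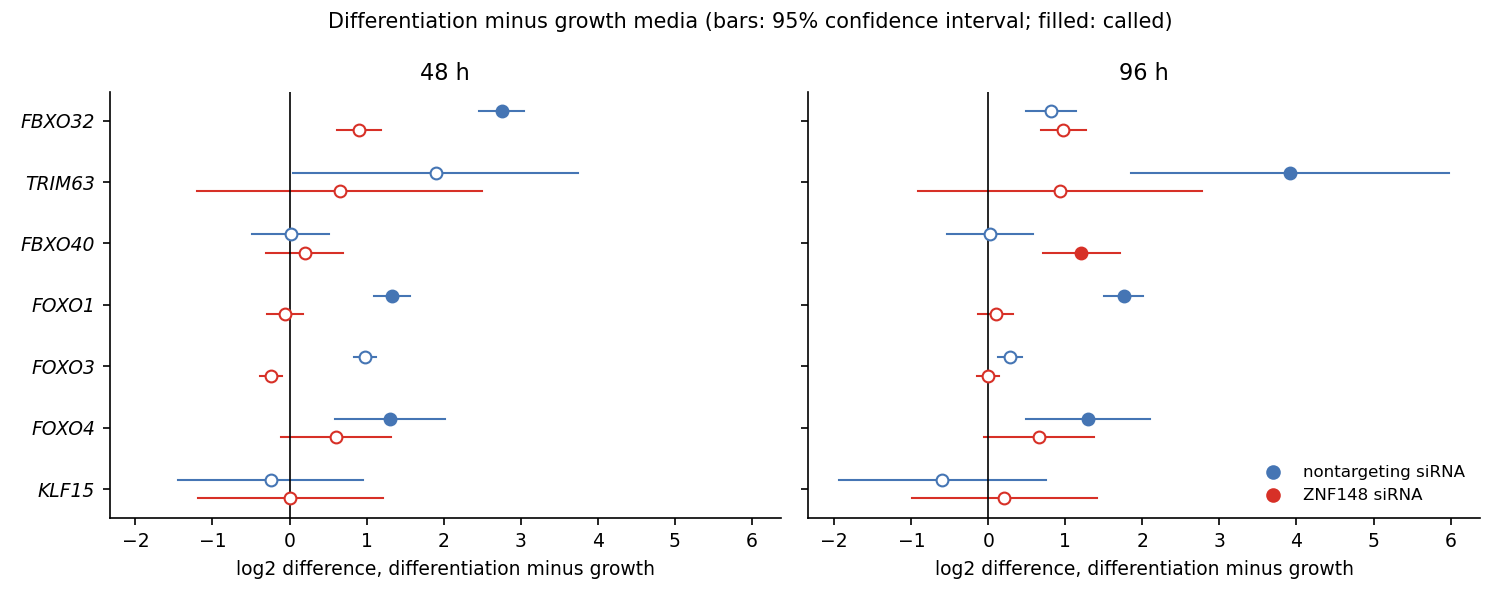
Log2 difference of differentiation minus growth media (x axis) for the 7 genes (y axis) at 48 and 96 h, with nontargeting siRNA in blue, ZNF148 siRNA in red, 95% confidence intervals as bars and filled points where the difference was called. FOXO1 lies at 1.33 and 1.76 with nontargeting siRNA and near 0 with ZNF148 siRNA, and the wide bars of TRIM63 go with the spread among the nontargeting arrays at 48 h in growth media.

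From 48 to 96 h in differentiation media, FBXO32 fell by 1.40 in siControl cells (2.63-fold, limma adjusted p = 1.06e-07). Of the 6 genes other than FBXO40 it was the only one called there, against 4.17% of genes called lower. TRIM63 had a larger difference, 1.88, without overlap of the arrays but with a limma adjusted p of 0.12. In a fit without siControl replicate 1 at 48 h in growth media, an array outside this comparison, that adjusted p was 2.08e-05, and with normexp correction the difference was 1.71 and also called. FOXO1 rose by 0.63 and FOXO3 fell by 0.36 over the same interval (limma adjusted p = 0.000117 and 0.000287). In growth media 0 of the same 6 were called in siControl cells, against 0.445% of all genes, and FOXO3 rose by 0.35 (limma adjusted p = 0.0229). TRIM63 was at -0.15 there, with an adjusted p of 1 in limma, but without replicate 1 at 48 h it rose by 1.75 (limma adjusted p = 0.00436). In siZNF148 cells FBXO32 rose by 0.58 in growth and 0.66 in differentiation media (limma adjusted p = 0.00385 and 0.00104). Of the 6 genes other than FBXO40, 0 were called higher in these cells in either of the media, against 4.13% and 4.35% of genes. FBXO40 had measured differences of 1.40 and 2.41, and of 0.39 and 0.47 with normexp correction.

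**Figure D4:**
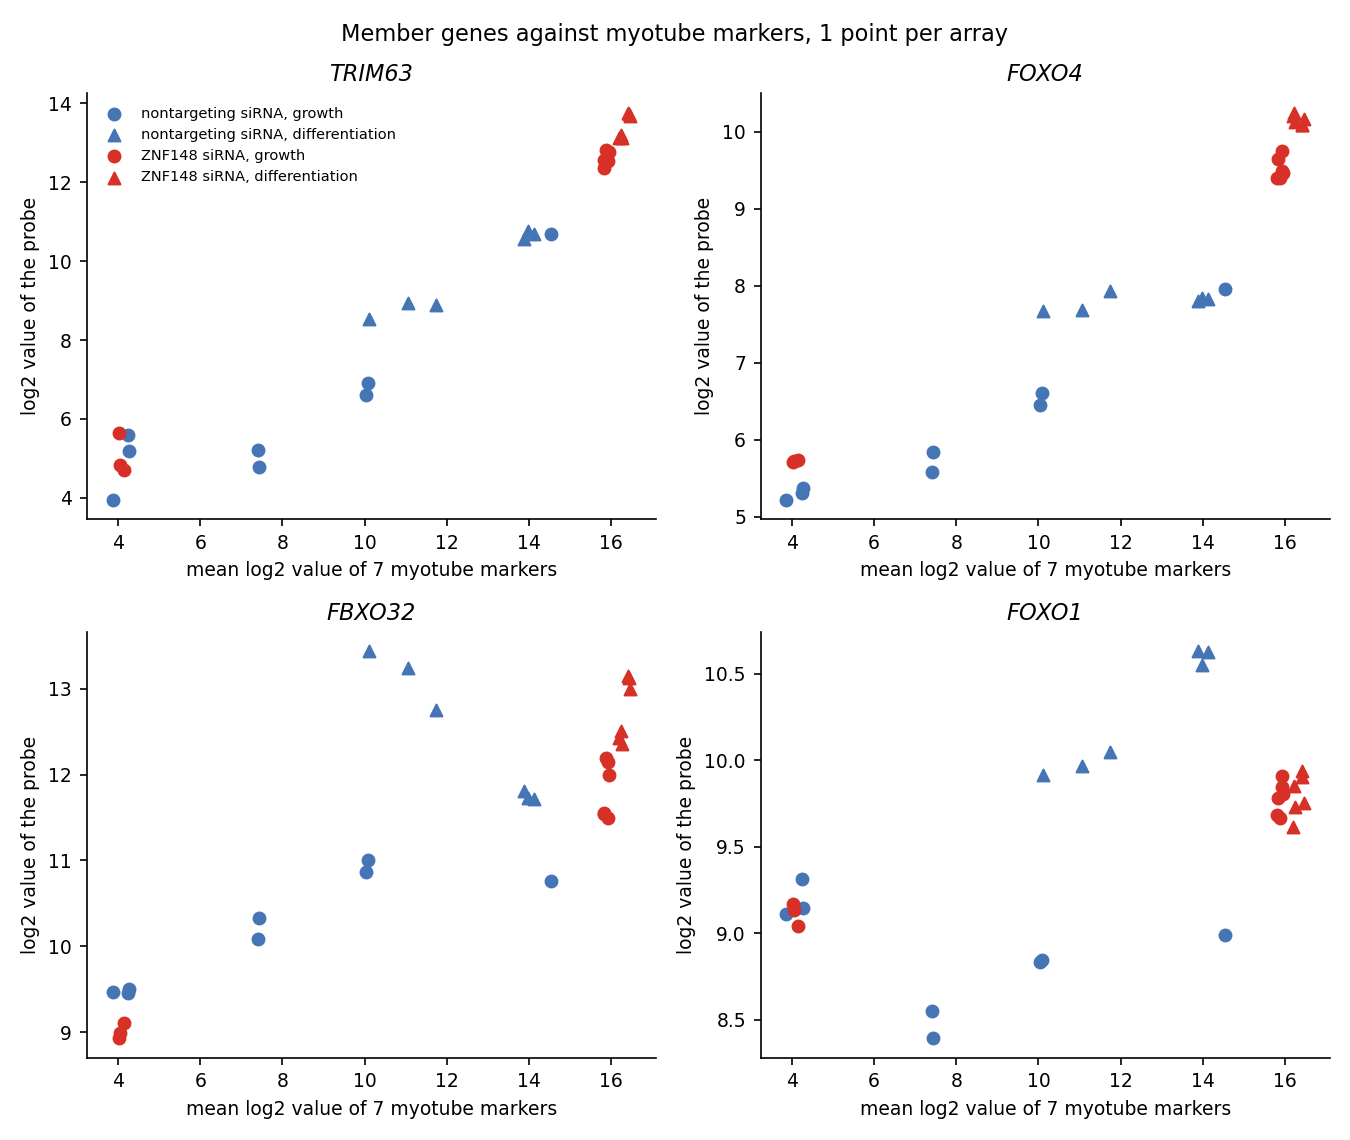
Log2 value of TRIM63, FOXO4, FBXO32 and FOXO1 (y axes) against the mean log2 value of 7 myotube markers (x axis), 1 point per array, with nontargeting siRNA in blue, ZNF148 siRNA in red, circles for growth and triangles for differentiation media. TRIM63 and FOXO4 follow the markers closely over the 29 arrays, also on the nontargeting array of 48 h in growth media that reads 14.5 for the markers, while FBXO32 and FOXO1 scatter.

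Over the 29 arrays, the level of TRIM63 had a Pearson r of 0.97 with the mean of the 7 myotube markers MYOG, CKM, ACTA1, MYH3, MYH8, TNNT3 and TTN, and that of FOXO4 one of 0.95. For FBXO32 r was 0.82, for FOXO1 0.61, for FOXO3 0.38, for FBXO40 0.36 and for KLF15 0.15. TRIM63 and FOXO4 had r = 0.98 with each other, against 0.80 for FBXO32 and TRIM63 and 0.65 for FBXO32 and FOXO1. These values describe arrays that share groups, slides and the siRNA contrast, and are not tests. The 3 genes most like TRIM63 among 18431 others were ERBB3 (r = 0.994), JPH2 and HSPB3 (both 0.992), and the 3 most like FOXO4 were TGFB3 (0.993), LMO7 (0.991) and VEZT (0.989). For FBXO32 they were PLPP1 (0.97), LOC728392 (0.963) and TNFAIP2 (0.961), for FOXO1 MAP7D1 (0.912), BLCAP (0.911) and BBS5 (0.908), and for FOXO3 CZIB (0.944), EPHB2 (0.934) and PSAT1 (0.929). FBXO40 and KLF15, which were rarely above background, had highest values of 0.925 with CIMIP2B and 0.73 with MYO1A.

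Among 19 other muscle ubiquitin genes, the ligase subunit ASB2 and TRIM54, a sarcomeric relative of TRIM63, rose with the knockdown. In growth media ASB2 rose by 6.01 at 48 h and 4.30 at 96 h, and TRIM54 by 5.43 and 6.04 (limma adjusted p from 1.59e-05 to 0.00199). The siControl means of ASB2 were 4.16 and 4.29. The lowest values well above background on those arrays were 3.84 to 4.65 at 48 h and 3.63 and 4.59 at 96 h. The changes of ASB2 are thus measured differences from near the floor. TRAF6, a ligase of inflammatory signaling, rose by 1.18 and 1.38, and UBE2J1, a ubiquitin-conjugating enzyme of the endoplasmic reticulum, by 1.71 and 1.14. Of the 19, the knockdown in growth media gave 0 called higher and 1 lower at 24 h, 4 higher and 2 lower at 48 h, and 4 higher and 1 lower at 96 h. In differentiation media it gave 5 higher and 4 lower at 48 h, and 3 higher and 2 lower at 96 h. The shares of all genes, given above, were 2.44% higher and 3.03% lower at 24 h. From 48 h on they ran from 10.4% to 17.2% in either direction. The counts called lower from 48 h on, and the 3 called higher at 96 h in differentiation media, are near or under these shares. The median change of the list lay between -0.18 and 0.14, and that of all genes between -0.06 and 0.00. At 24 h the gene called was UBE2B, a conjugating enzyme, at -1.50. CBLB, a ligase known to target IRS1, rose by 2.07 and 1.94 from growth to differentiation media in siControl cells at 48 and 96 h, and at 96 h in differentiation media the knockdown lowered it (-1.52, limma adjusted p = 3.11e-13).

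Of 23 regulators of the FOXO factors, counting the relative FOXO6, growth media gave 3 called higher and 1 lower at 24 h, 6 higher and 1 lower at 48 h, and 2 higher and 0 lower at 96 h. The shares of all genes called higher and lower were 2.44% and 3.03%, 11.7% and 12.2%, and 12.3% and 12.4% at these times. Differentiation media gave 3 called each way at 48 h, against 15% of all genes higher and 17.2% lower, and 2 each way at 96 h, against 10.4% and 12.8%, so these counts are at or below the shares of all genes. The medians of the 5 comparisons lay between -0.25 and 0.21. FOXO6 rose at 24 h (1.99, limma adjusted p = 1.57e-08) and at 48 h (1.51) in growth media. PRKAA2, the catalytic AMPK subunit of muscle, rose by 1.42 and 2.93 in growth media at 48 and 96 h and by 4.39 and 3.81 in differentiation media. The insulin receptor INSR rose by 1.76 and 1.46 in growth media. SKP2, an F-box protein known to mark FOXO1 for degradation, rose by 1.22 at 24 h, 1.40 at 48 h in growth media and 2.23 at 48 h in differentiation media, and fell by 1.09 at 96 h there.

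Among 24 other genes known as FOXO targets, 4 were called higher and 5 lower at 48 h in growth media and 5 each way at 96 h, with medians of -0.03 and 0. At 24 h the counts were 0 and 2, against 2.44% and 3.03% of all genes. In differentiation media 3 were called higher and 10 lower at 48 h and 5 and 8 at 96 h, with medians of -0.44 and -0.50, against 15% and 17.2%, and 10.4% and 12.8%, of all genes. In growth media the shares of all genes were 11.7% higher and 12.2% lower at 48 h and 12.3% and 12.4% at 96 h. The lysosomal protease CTSL changed by -3.02 and -2.37 in growth and -2.96 and -1.65 in differentiation media at 48 and 96 h (limma adjusted p from 3.98e-16 to 7.15e-12). PIK3IP1, an inhibitor of PI3 kinase, TXNIP, an inhibitor of thioredoxin, and CCNG2, an atypical cyclin, had changes of -3.17, -3.15 and -3.01 at 48 h in differentiation media. BCL2L11, which encodes the apoptosis protein BIM, rose in growth media by 2.36 and 2.51, and the pyruvate dehydrogenase kinase PDK4 by 2.49 at 96 h. In siControl cells the change to differentiation media at 48 h raised 7 and lowered 3 of the 24, with SESN3 at 3.62, BCL2L11 at 3.31, PIK3IP1 at 2.40 and PDK4 at 2.06, against 7.7% of all genes called higher and 8.17% lower. In siZNF148 cells 0 of the 24 were called, where the shares of all genes were 1.12% and 2.84%.

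Growth media, by the recipe the study gives for its screen, held dexamethasone, a glucocorticoid, and differentiation media did not. Of 17 glucocorticoid-responsive genes, 2 were called higher and 6 lower in differentiation than in growth media in siControl cells at 48 h, and 2 and 10 at 96 h. In siZNF148 cells these counts were 0 and 8, and 1 and 11. Of all genes, 7.7% and 6.79% were called higher and 8.17% and 8.27% lower with siControl at the 2 times, and 1.12% and 1.44% higher and 2.84% and 4.96% lower with siZNF148. The medians were -0.21 and -1.31 with siControl and -0.86 and -1.48 with siZNF148, against -0.03 to 0.01 over all genes. FKBP5, a receptor co-chaperone, was at -2.72 in siControl and -2.40 in siZNF148 cells at 96 h (limma adjusted p = 3.01e-12 and 1.48e-11). After the knockdown 2, 2, 3, 0 and 2 were called higher and 1, 5, 5, 8 and 5 lower in the 5 comparisons, in the order of time in growth and then differentiation media, where 2.44%, 11.7%, 12.3%, 15% and 10.4% of all genes were called higher and 3.03%, 12.2%, 12.4%, 17.2% and 12.8% lower. The glutamine synthetase gene GLUL changed by -1.93 at 48 h and -1.82 at 96 h in growth media. FBXO32 and TRIM63, both known to respond to glucocorticoids, had no negative difference of differentiation minus growth media in either kind of cell. By the same recipe the media also differed in serum, growth factors and insulin. The part of dexamethasone in any of these differences cannot be told apart from them and was not tested.

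Of 20 regulators and substrates of the ligases, 18 had a tested probe, and 9 and 7 of them were called higher at 48 and 96 h in growth media, with 0 and 1 lower, against 11.7% and 12.3% of all genes higher and 12.2% and 12.4% lower. At 24 h 2 were called higher and 1 lower, against 2.44% and 3.03% of all genes. Differentiation media gave 8 called higher and 3 lower at 48 h, against 15% and 17.2%. At 96 h there they gave 3 higher and 1 lower, against 10.4% and 12.8%. The counts called lower in these media are at or below the shares of all genes. MYOG, a direct activator of both ligase genes in denervated muscle, rose by 4.06 and 4.39 in growth media (limma adjusted p = 8.96e-06 and 1.53e-05). TRIM63 substrates rose with it, among them CKM, by 8.06 and 7.63, titin (TTN), by 5.52 and 5.31, and the thick filament protein MYBPC1, by 5.34 and 9.92. The siControl mean of MYBPC1 at 96 h was 2.60. That is under the lowest values well above background on those arrays, 4.59 and 3.63, so 9.92 is a measured difference from the floor. At 48 h the siControl mean of MYBPC1, 4.43, lay within the range of such values there, 3.84 to 4.65. MYOG, CKM and TTN are also among the myotube markers, and MYOD1 among the myoblast markers. ACVR2B, the receptor of myostatin, rose by 2.36 already at 24 h (limma adjusted p = 5.25e-06), where RELA, a subunit of NF-κB, fell by 1.53. HDAC5, a class II histone deacetylase, fell by 2.95 at 96 h in differentiation media (limma adjusted p = 1.12e-14).

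**Figure D5:**
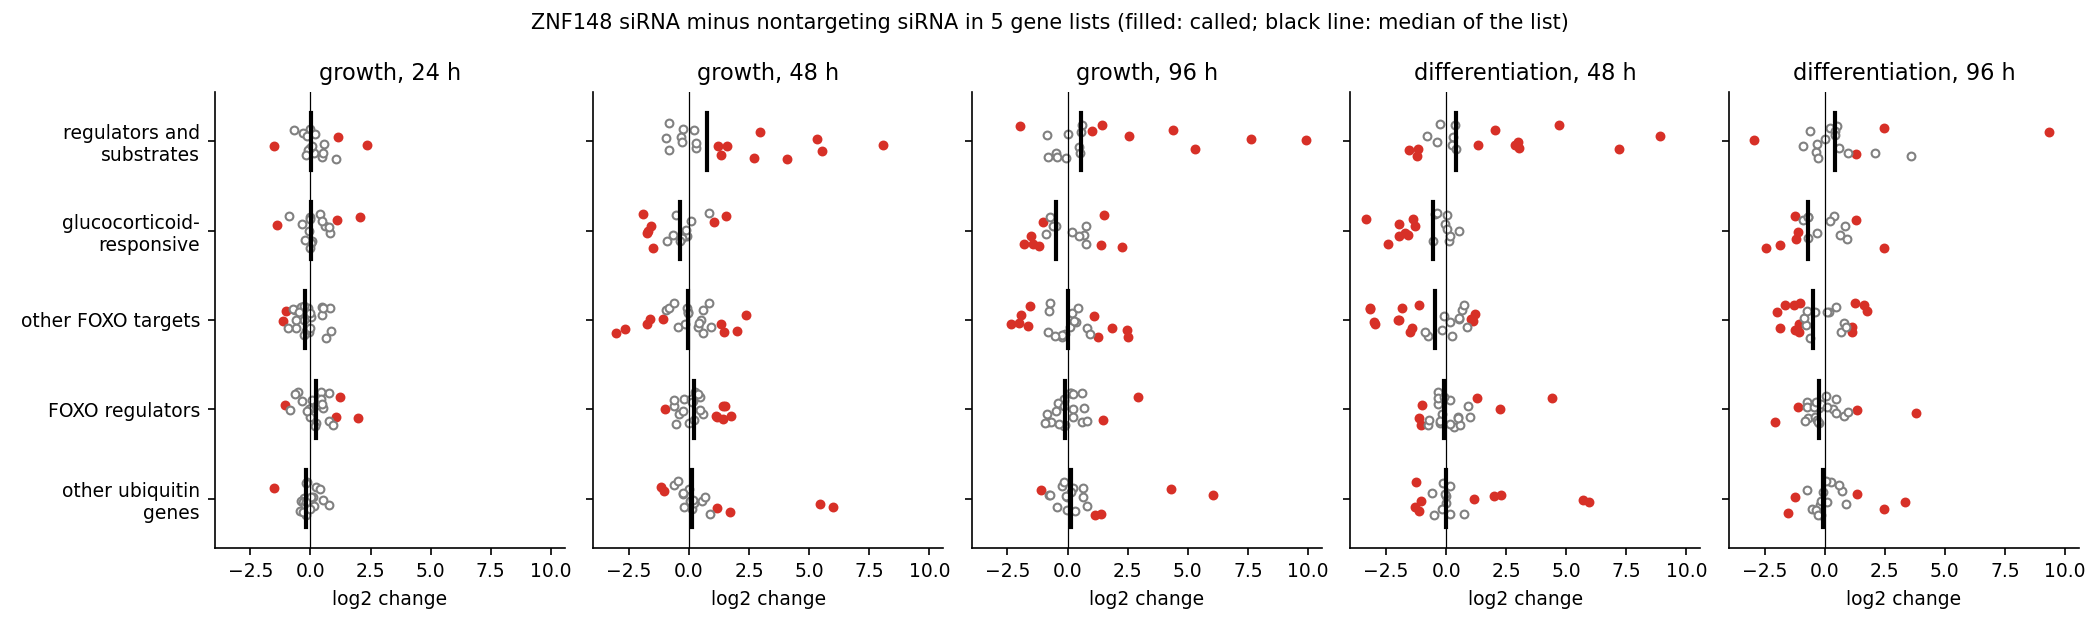
Log2 change after ZNF148 knockdown (x axis, the same in all panels) of the genes of 5 lists (y axis) in the 5 comparisons, 1 point per gene, filled where called, with a black line at the median of each list. Most medians lie within 0.5 of 0, and the list of regulators and substrates has single genes far to the right, up to 9.92 for MYBPC1 at 96 h in growth media.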

How the data were processed

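RNA of LHCN-M2 cells was hybridized to 29 Agilent 1-colour arrays in 10 groups, taken from the sample labels. The authors extracted the intensities with Agilent Feature Extraction (10.7.3.1 per the labels), which subtracts the background of each of 62976 spots, 2075 of them controls. The authors then deposited a matrix of log2 values, quantile-normalized over all samples, with a median of 4.28 in each column. Each of its 29 columns correlated best with its own array (r of at least 0.995). The spot files, deposited per array, also hold marks, coded as 0 or 1, for spots well above background.

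The analysis took these log2 values as given and used limma (version 3.58.1) under R (version 4.3.3). RefSeq accessions named 31104 probes of 22439 genes. Probes that passed the background mark on 2 or more arrays, 38839 in all, entered 1 fit with 10 group means (lmFit, eBayes), with two-sided tests, Benjamini-Hochberg adjustment over all of them, and a call at an adjusted p under 0.05 and more than 2-fold. Differences of effects were contrasts of contrasts in that fit. Where a gene had several tested probes, the brightest on average stands for it. The members, the gene lists and the tests were chosen with earlier results of these data known. Beyond members and ZNF148, the text names at most the 4 listed genes with the largest change among those called in a comparison, and the 3 genes most correlated with each member. Marker lists of myoblasts, myotubes, fibroblasts, adipocytes, endothelium, leukocytes and heart were checked by level.

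The slides were 4, of which 3 mix the groups from 48 h on. Alternatives were quantile normalization of the scanner signals, scaling to the 75th percentile, normexp (offset 50, on median signals), other filters, variances and weights, slide or replicate number as a block, the methods' t-test, no fold threshold, and leaving out each array. The script was checked on simulated data holding known changes. Replicate numbers were taken from the sample titles, and deviations of arrays with the same number correlated between -0.16 and 0.12, so no pairing by these numbers was seen. For siZNF148 at 48 h in growth media the sample descriptions give other numbers than the titles, so pairing cannot be decided there. Promoter windows of 250 bases came from a RefSeq table.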

Additional observations from a re-analysis of the deposited data

Results flagged for a closer look

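These results are given because the effect of the knockdown (siZNF148 minus siControl, log2) differed between times or media by a test of the difference itself, as contrasts of contrasts in limma with Benjamini-Hochberg adjustment over all probes. Between 24 and 48 h in growth media the effect rose by 5.45 for TRIM63 (adjusted p = 0.00153), 2.71 for FOXO4 (0.000137), 1.61 for FBXO32 (1.61e-06) and 1.22 for FOXO1 (2.42e-06). Between 24 and 96 h it rose by 5.90 for TRIM63 (adjusted p = 0.00122), 2.51 for FOXO4 (0.000513), 1.65 for FBXO32 (2.09e-06) and 1.01 for FOXO1 (4.64e-05). The 24 h effects were measured within their own slide and scan, and the part of these in the differences was not tested.

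Between 48 and 96 h the effect on FBXO32 rose by 2.05 in differentiation media (adjusted p = 5.97e-08). In differentiation minus growth media, the effect at 48 h differed by -1.85 for FBXO32 (adjusted p = 1.95e-07), -1.39 for FOXO1 (3.61e-07) and -1.23 for FOXO3 (2.6e-09), and at 96 h by -1.67 for FOXO1 (2.2e-07).

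The measured differences for FBXO40 were 1.62 between 24 and 96 h and 1.21 between 48 and 96 h in growth media, 2.22 between 48 and 96 h in differentiation media, and 1.19 for differentiation minus growth media at 96 h. They are descriptions only, since its probe was above background on 2 of 29 arrays and passed the filter only through siZNF148 cells at 96 h, the groups that set these differences. With normexp correction they were 0.39, 0.42, 0.44 and 0.15, all under 2-fold.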

How the results depend on the processing

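Of 1348 member values recomputed under other settings, 1253 kept their direction and their side of the call, 60 changed sign without being called under either setting, 15 lost the call, 18 gained it and 2 changed sign with a call. The refit without siControl replicate 1 at 48 h in growth media counts 2 times in comparisons that use this array. The 2 values that changed sign with a call are this refit of TRIM63 for 96 minus 48 h in siControl cells in growth media. The counts of members called, FBXO40 included, that moved by over 1.5 times are these. On the adjusted p alone, 2 were called at 24 h and 4 at 48 h in differentiation media. With normexp correction 0 were called for differentiation minus growth media in siZNF148 cells at 96 h, 0 for 96 minus 48 h in siZNF148 cells in growth and 0 in differentiation media, and 2 in siControl cells in differentiation media. Without siControl replicate 1 at 48 h in growth media, 5 were called for differentiation minus growth media in siControl cells at 48 h, and for 96 minus 48 h in siControl cells 1 in growth and 2 in differentiation media. Leaving out each array in turn gave 2 to 5 calls for differentiation minus growth media in siControl cells at 48 h, 1 to 2 in siZNF148 cells at 96 h and 0 to 1 for 96 minus 48 h in siControl cells in growth media. In the last of these, TRIM63 ran from -1.20 to 1.75, and it was 1.75 without replicate 1 at 48 h. The 2 calls in siZNF148 cells at 96 h, with FBXO32 added at 1.01 and 1.02, came without replicate 2 of either group. With the replicate number of the titles as a block, as for paired samples, the members called after knockdown, FBXO40 included, were 0, 4, 4, 2 and 4, and the block changed no other count. In the methods' t-test with Benjamini-Hochberg adjustment, TRIM63 at 48 h (adjusted p = 0.0993) and FBXO40 at 96 h (0.0564) in growth media were not called. Over all probes, the fit of the deposited values called 1857, 7792, 8068, 10876 and 8011 after knockdown, in the order of time in growth and then differentiation media, and normexp correction 578, 4015, 4294, 6052 and 3735. Under scaling to the 75th percentile the median change of all probes reached 0.10, at 96 h in differentiation media. The cause of these changes was not tested. Slide could not be a block at 24 h, with 1 slide. FBXO40 and KLF15 are limited by signal over background.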
